A study of Mus musculus with 19 samples.

Results

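The genes described here were 10 genes of bone and cartilage, Spp1, Ibsp, Alpl, Runx2, Sp7, Acan, Comp, Mmp13, Dmp1 and Matn1, of 23284 mouse genes for which RNA-seq values were deposited. They were taken by name, and all 10 were found in both deposited tables. They had been proposed with results of these samples known and count as selected on their expression in MEFs against prostate, so that difference is given as values, with no test. The samples were 6 of mouse embryonic fibroblasts (MEFs), 6 of mouse prostate and 7 renal grafts. The MEFs came from embryos at E13.5 of the strain C57BL/6. The study's methods give the limbs as their source, whereas the sample labels speak of dissociated embryos and name no part of them. By the methods, male and female littermates were pooled and blood, endothelial, myeloid and epithelial cells were removed by sorting. The prostates were from C57BL/6 mice at 6 weeks of age. Each graft had been made from induced mouse epithelial cells, which were fibroblasts converted with retroviral human reprogramming factors, mixed with rat urogenital mesenchyme and grown for 6 weeks under the kidney capsule of male nude mice. The sample labels put all 7 grafts in 1 group, and the 5 grafts deposited with the MEFs and prostates and the 2 grafts deposited in a table of their own are described by table. The study's supplement names the 5 as grafts of induced epithelial cells that also carried its prostate regulators. By the study's counts, the 2 would be grafts of induced epithelial cells alone, described as without prostate tissue. The sources used here do not name these 2 samples. The values are of mouse genes, while the grafts also hold rat cells, host kidney and host blood cells, so the source of a transcript within a graft cannot be told apart.

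Bone is made by osteoblasts, which differentiate under the transcription factor Runx2 and, after it, Sp7 (Osterix). They lay down a collagen matrix that carries acidic phosphoproteins of one gene family, among them osteopontin (Spp1), bone sialoprotein (Ibsp) and Dmp1, and tissue-nonspecific alkaline phosphatase (Alpl) frees the phosphate from which mineral is formed. Cartilage is made by chondrocytes, whose matrix holds the proteoglycan aggrecan (Acan) and the glycoproteins Comp and matrilin-1 (Matn1). Chondrocytes that enlarge before bone replaces them express the collagenase Mmp13. Several of these genes are also used outside the skeleton: Spp1 is expressed by macrophages and kidney tubules, and Alpl by kidney tubules.

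Reads counted on genes were 16767295 to 26152349 per sample in the table of 17 samples and 6629667 and 9662061 in the 2 grafts of the second table. The values are on a log2 scale, and 3 reads corresponded to 1.68 to 2.34 in the first table and to 3.12 and 2.70 in the second. A value at or below that of 3 reads is called undetected here, and these floors cover counting error only. The 6 MEF samples fell into 3 close pairs, FS015 with FS020, FS016 with FS019 and FS017 with FS018. The SD of the log2 difference over genes was 0.094 to 0.113 within these pairs and 0.414 to 0.508 for the 12 other combinations of MEFs. They differed by more than counting noise and were kept as separate samples, although repeat libraries of 1 culture could also differ that much. Permutation p-values over the 3 pair means are given beside those of the members called different from MEFs. The labels do not say whether samples of a group came from separate cultures or animals, so the p-values measure the spread between these samples only. The 6 prostate secretion markers had mean values of 16.7 to 17.4 in prostate, 6.45 to 8.91 in the grafts of the first table and 1.53 to 8.22 in MEFs. In bulk tissue, fewer cells of a type and less RNA per cell cannot be told apart.

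The 10 genes lie on 7 chromosomes of the mouse assembly mm9. Dmp1, Ibsp and Spp1 are neighbours on chromosome 5 and span 238 kb together. Alpl and Matn1 are both on chromosome 4. Spp1 occupies chr5:104864137-104870069 on the plus strand, Mmp13 chr9:7272514-7283333 on the plus strand and Alpl chr4:137297648-137352299 on the minus strand, in the annotation GENCODE M1. The sequences upstream of the start of these 3 genes are shown because Spp1 and Mmp13 were lower in grafts than in MEFs while Alpl was higher. They are the RefSeq promoter entries of GRCm38.p6, limited to the 250 bases before the start and found unchanged in mm9, where they lie at chr5:104863880-104864129, chr9:7272264-7272513 and chr4:137352300-137352549. Capitals mark matches, on either strand, to the core of the RUNX motif, TGTGGT, which reads ACCACA on the opposite strand, and to the AP-1 motif, TGANTCA.

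Spp1: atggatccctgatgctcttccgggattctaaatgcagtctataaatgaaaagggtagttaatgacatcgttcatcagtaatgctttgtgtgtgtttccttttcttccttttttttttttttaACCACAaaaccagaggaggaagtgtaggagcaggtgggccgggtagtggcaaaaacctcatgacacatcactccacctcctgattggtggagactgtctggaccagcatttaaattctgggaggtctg

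Mmp13: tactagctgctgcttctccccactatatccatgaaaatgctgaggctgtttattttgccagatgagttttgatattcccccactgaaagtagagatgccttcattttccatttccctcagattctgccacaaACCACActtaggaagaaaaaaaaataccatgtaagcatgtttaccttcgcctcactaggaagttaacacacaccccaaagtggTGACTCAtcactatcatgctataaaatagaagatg

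Alpl: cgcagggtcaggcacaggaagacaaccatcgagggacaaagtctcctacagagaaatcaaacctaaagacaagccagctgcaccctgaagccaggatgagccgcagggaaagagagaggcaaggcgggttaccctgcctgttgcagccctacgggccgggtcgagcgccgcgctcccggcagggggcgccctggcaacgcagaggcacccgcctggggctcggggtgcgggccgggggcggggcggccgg

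Of the 8 members with a RefSeq entry, 5 held TGTGGT in these 250 bases (Spp1, Runx2, Mmp13, Dmp1 and Matn1), and 14% of all 32851 promoter entries did. Members were counted by the entry nearest the GENCODE start alone, and the background by every entry of a gene. The further entries of Spp1, Alpl and Dmp1 held neither motif, so member counts and background are not like for like. The match began 128 bases before the start in Spp1, 118 in Mmp13, 80 in Runx2, 164 in Dmp1 and 134 in Matn1. TGANTCA was found in Mmp13 alone among the 8, beginning 35 bases before the start, and in 6.75% of all promoters. The entries nearest the GENCODE start of Alpl, Ibsp and Acan held neither motif, which says only that these letters are not in that window. On the deposited values, Acan was lower in grafts than in MEFs (-2.85), while Dmp1 (0.04) and Matn1 (2.18) held TGTGGT and were not called. A match therefore did not go with the direction of change over the members, and any role of the motifs was not tested. The matches to the 2 motifs did not overlap. Comp and Sp7 had no entry.

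In MEFs, the osteoblast regulator Runx2 and the matrix gene Spp1 were high in all 6 samples, the cartilage genes Acan and Comp and the collagenase Mmp13 were detected in all 6 at differing levels, and the mineralization enzyme Alpl and the late matrix genes Ibsp and Dmp1 were low. Runx2 was at 9.86 and 9.88 in the pair FS015 and FS020, 10.11 and 10.15 in FS016 and FS019, and 10.45 and 10.33 in FS017 and FS018. In prostate it was between 5.41 and 6.24 (median 5.88, n = 6), below every MEF. Sp7, which acts downstream of Runx2 and is needed for bone formation, was above the value of 3 reads in 6 of 6 MEFs, at 2.15 and 2.14, 5.08 and 4.79, and 4.51 and 3.24 in the same order of pairs. The 2 samples of the first pair were the lowest, FS020 with an estimated 3.42 reads, and no prostate sample had Sp7 above 3 reads.

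In MEFs, Spp1 was the most abundant member per length. Its values there were 14.92 and 14.94, 15.84 and 15.83, and 14.60 and 14.66, a mean of 15.13 ± 0.56 (SD, n = 6) and of 15.13 ± 0.63 over the 3 pair means. In prostate the 6 values ran from 4.58 to 5.90 (median 5.12). The mean normalised count in MEFs was 1078 times that in prostate. Ranked by normalised count per exon length among 21897 genes, Spp1 stood between rank 5 and rank 22 in MEFs and between rank 10687 and rank 12263 in prostate. It took 0.130% to 0.298% of the normalised counts of an MEF sample. Its neighbour Ibsp was above 3 reads in 2 of 6 MEFs and 1 of 6 prostates, and Dmp1, an osteocyte gene, in 4 of 6 MEFs and 0 of 6 prostates. The high level of Spp1 was therefore not accompanied by a high level of the neighbouring genes of its family.

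Alpl was the member that ran the other way. Its values in MEFs were 2.61 and 2.24, 2.31 and 2.11, and 4.75 and 5.21, which is 4 to 6 reads in the first 4 samples and 29 and 38 reads in FS017 and FS018. In prostate, Alpl was at 8.40 to 9.45 (median 8.81), with 313 to 583 reads. The mean normalised count was 38 times higher in prostate than in MEFs.

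Of the cartilage genes, Acan was at 7.27 and 7.46, 7.14 and 6.76, and 9.46 and 9.49 in the MEF pairs, with 142 to 811 reads, and was undetected in 5 of 6 prostates. Comp, a pentameric matrix protein of cartilage and tendon, was at 5.36 and 5.31, 6.81 and 6.58, and 12.39 and 12.38, and at 3.08 to 3.69 in prostate. Matn1, a matrix protein of mature cartilage, was undetected in all 6 MEFs. Mmp13 was at 6.53 and 6.61, 8.92 and 8.96, and 8.21 and 8.34 in MEFs and at 0.16 to 3.22 in prostate (median 2.71). Acan and Comp thus peaked in 1 MEF pair and Mmp13 in another.

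In all, 6 members had a mean linear value of at least 10 over MEFs and prostates. Of these, 5 were higher in MEFs by at least 1 on the log2 scale (Spp1, Runx2, Acan, Comp and Mmp13) and 1 was lower (Alpl), where 20.7% and 28.8% of the 14560 genes compared were. This contrast chose the members and supports no statement about them. Per exon length, the order of the median normalised counts per kb in MEFs was Spp1 (18927), Runx2 (127), Mmp13 (116), Comp (42.2), Acan (22.2), Sp7 (4.78), Dmp1 (1.51) and Alpl (1.0), with Ibsp and Matn1 below 1. The sample ranges of neighbours in this order overlapped, except for Spp1 over Runx2 and Acan over Sp7.

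**Figure D1:**
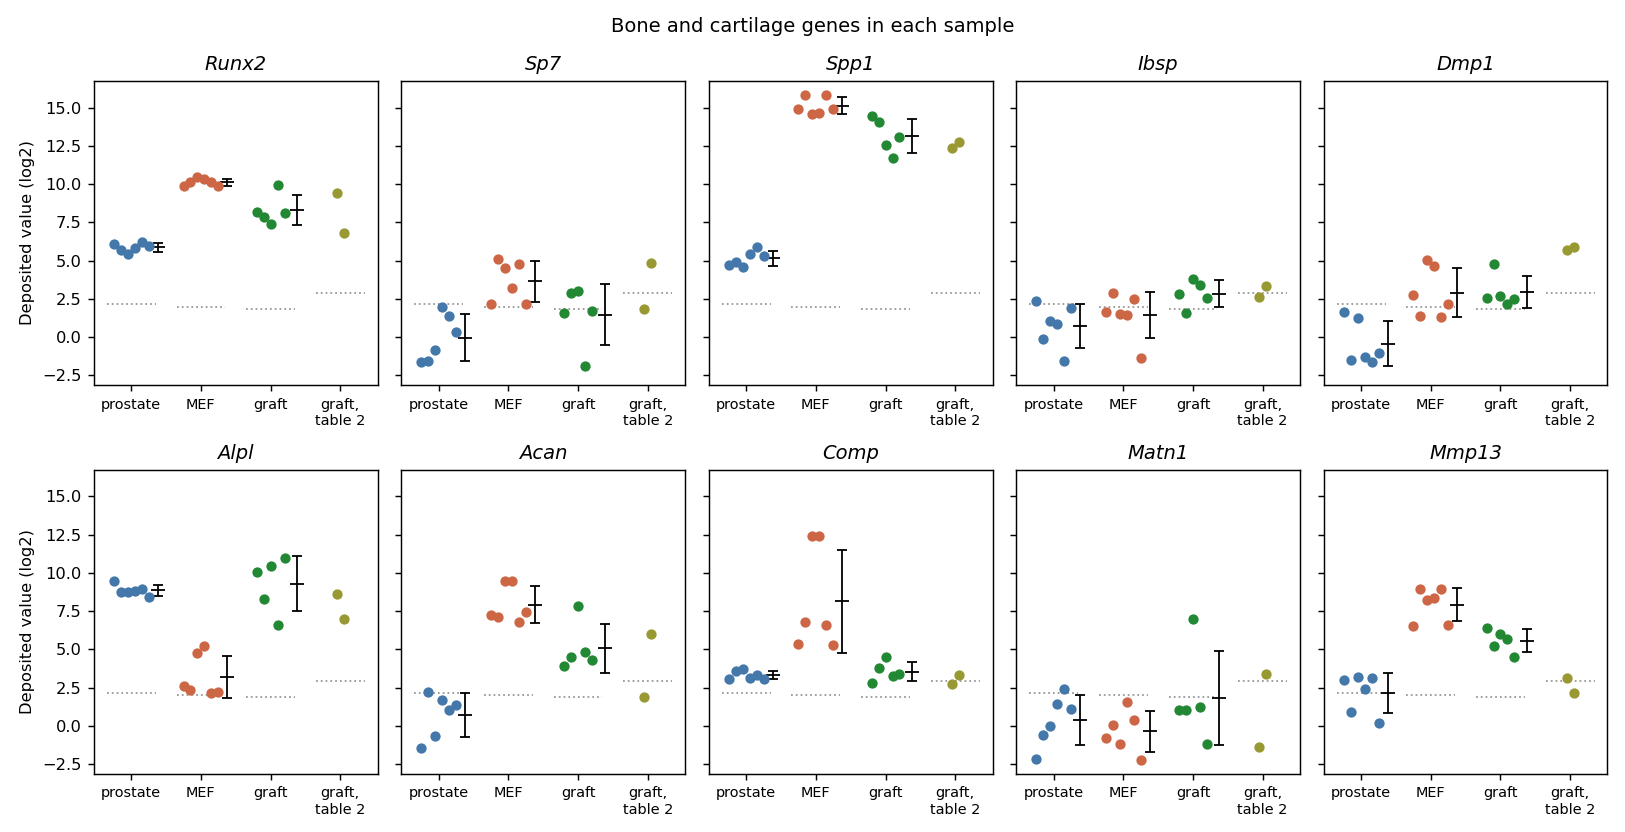
Deposited value (log2) of each of the 10 genes in each sample, 1 panel per gene; points are samples, black bars the mean ± SD of a group, and dotted lines the mean value of 3 reads in that group. Spp1, Runx2, Acan and Mmp13 are high in MEFs, intermediate in grafts and low in prostate, while Alpl is low in MEFs only; the 2 grafts of the second table are shown without a mean.

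The MEF samples differed among themselves mainly between pairs. For 8 of the 10 members, the 3 pair means spread more widely than the largest difference within a pair. The pairs were themselves drawn from closeness over all genes, so such a spread is likely for most expressed genes. The share over all genes was not computed, and the count says nothing particular about the members. Comp had the widest spread, 7.05 on the log2 scale against at most 0.22 within a pair, and its mean normalised count was 138 times higher in FS017 and FS018 than in FS015 and FS020. The same pair, FS017 and FS018, was highest in Acan (5.77 times the lowest pair), Alpl, Runx2 and Dmp1. The pair FS016 and FS019 was highest in Spp1 (2.31 times the lowest pair), Mmp13 (5.25 times FS015 and FS020) and Sp7. Runx2 varied least among the 9 members detected in at least 1 MEF, by 0.52 between pair means. The MEF samples therefore shared Runx2 and Spp1 and differed most in Comp.

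**Figure D2:**
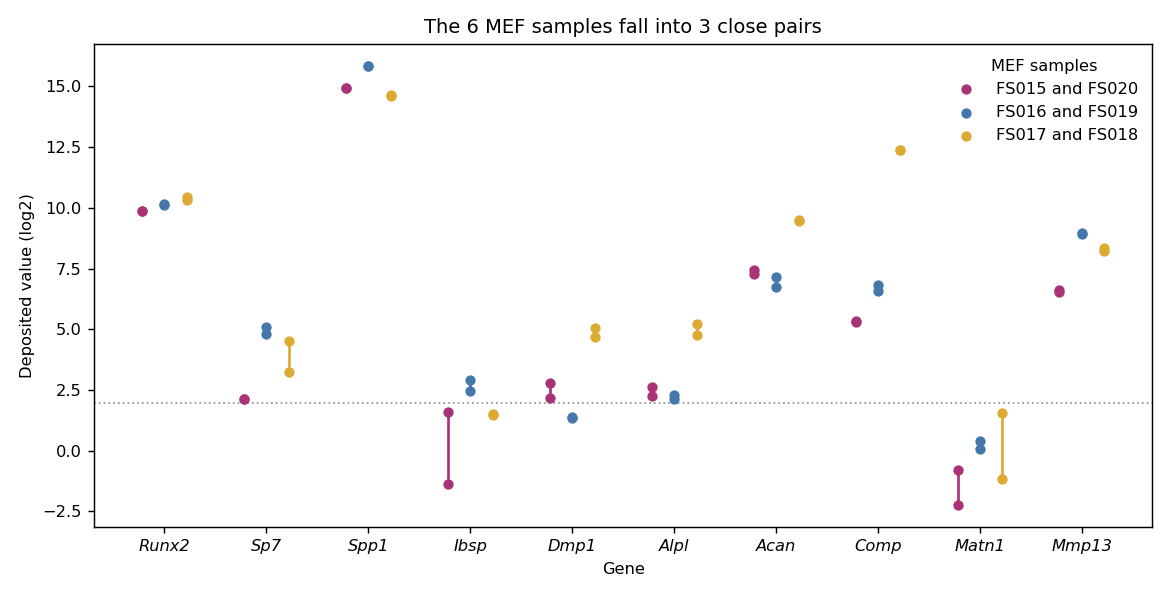
Deposited value (log2) of the 10 genes in the 6 MEF samples, coloured by pair, with a line joining the 2 samples of a pair and a dotted line at the mean value of 3 reads. The 2 samples of a pair nearly coincide for the abundant genes, and Comp reaches 12.39 in 1 pair and 5.31 to 6.81 in the others.

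Genes of the wider skeletal programme were read from lists of such genes, which include some of the members. In MEFs, type II collagen (Col2a1), the main collagen of cartilage, was at 10.6 to 13.7 and was highest in FS017 and FS018, the pair highest in Acan and Comp. Type X collagen (Col10a1), made by hypertrophic chondrocytes, was at 10.6 to 12.4. Type I collagen (Col1a1), the collagen of bone and of most connective tissue, was at 17.7 to 18.4. Of the 21 genes of the cartilage matrix list, 13 to 19 were detected per MEF sample and 13 to 19 per prostate sample. Among the low ones in MEFs, Chad was at 1.40 to 3.59 and Ucma at most at 2.23. Over the bone matrix and mineralization list, 15 of the 21 genes were detected in each MEF sample and 15 or 16 in each prostate. These counts of detected genes therefore did not set MEFs apart from prostate. Phex, expressed by osteoblasts and osteocytes, was at 3.09 to 5.68 in the 6 MEFs, whereas osteocalcin (Bglap and its near-identical copy Bglap2, between which reads can be split), Mepe, Dspp and Sost were not above 3 reads in any. These bone genes and the low cartilage genes were named after their values had been seen.

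The comparison of grafts with MEFs asked whether the fibroblast pattern was lost once the converted cells had grown as tissue. By limma on the log2 values (Benjamini-Hochberg adjusted p under 0.05 and a log2 difference of at least 1), 5 of the 9 members tested were lower in grafts than in MEFs and 1 was higher, where 12% and 29.9% of all 16121 genes tested were. The median difference was -1.95 over these members and 0.26 over all genes. The members count as selected on these same MEF samples, which favours a difference from MEFs in any other group. The share of all genes is therefore not a like background for these counts. Ibsp did not reach the minimum level, a mean linear value of 10, and was not tested. Sp7 reached it only through the MEFs and Matn1 only through the grafts, so these 2 could pass in 1 direction only. Quantile normalisation moved the median of all genes from 0.26 to -0.19 and turned the 4815 higher and 1942 lower genes into 2556 and 3724, and the 6 members called without it were in the same direction with it, with Spp1 no longer called. Sp7 (-4.88) and Dmp1 (-3.01) were also called lower under that scaling.

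Spp1 was at 14.48, 14.06, 12.55, 11.74 and 13.07 across the 5 grafts of the first table, taken in this and later lists in the order FS002, FS003, FS005, FS007, FS008. All 5 lay below the lowest MEF (14.60) and above the highest prostate (5.90). The difference from MEFs was -1.95 (SE 0.47, adjusted p = 0.0035 by limma), or -2.21 relative to the median gene, and the exact two-sided permutation p over samples was 0.0043, the smallest that 5 against 6 samples allow. Over the 3 MEF pair means, the exact permutation p was 0.036, the smallest possible there, and the limma adjusted p was 0.031. With quantile normalisation, the difference was -1.12 (limma adjusted p = 0.081). The mean normalised count was 3.31 times higher in MEFs than in grafts, and Spp1 still ranked between 21 and 319 per length in the grafts.

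Runx2 was at 8.16, 7.86, 7.40, 9.96 and 8.12 in the same grafts, and 4 of the 5 lay below every MEF. Graft FS007, the lowest in Spp1, was the highest in Runx2 and within the range of the MEFs. The difference was -1.83 (SE 0.37, limma adjusted p = 0.0012, exact permutation p = 0.013, and 0.071 over pair means). Sp7 was above 3 reads in 2 of 5 grafts, at 2.90 in FS003 and 3.0 in FS005, and its difference of -2.20 missed the threshold (limma adjusted p = 0.063), while it was called without FS003 (-2.56, limma adjusted p = 0.049) or without FS005 (-2.58, limma adjusted p = 0.047).

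Mmp13, at 6.43, 5.20, 5.98, 5.70 and 4.52, was below every MEF in all 5 grafts, with a difference of -2.37 (limma adjusted p = 0.0023, exact permutation p = 0.0043, and 0.036 over pair means). Comp had the largest difference of the members that fell. It was at 2.78 to 4.50 in grafts, below every MEF. The difference was -4.60 (SE 1.38, limma adjusted p = 0.012, exact permutation p = 0.0043, and 0.036 over pair means). Without the high pair FS017 and FS018, it was -2.47 (limma adjusted p = 0.0029). Acan was at 3.88, 4.50, 7.86, 4.84 and 4.31, so that 4 of 5 grafts lay below every MEF and FS005 lay among them. Its difference was -2.85 (limma adjusted p = 0.0069, exact permutation p = 0.022, and 0.11 over pair means).

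Alpl was the 1 member higher in grafts than in MEFs. It was at 10.06, 8.29, 10.45, 6.61 and 10.98, above every MEF in 5 of 5 grafts. The difference was 6.07 (SE 0.87, limma adjusted p = 1.1e-04, exact permutation p = 0.0043, and 0.036 over pair means). The mean normalised count was 78.5 times that in MEFs. Dmp1 did not pass the threshold (difference 0.04, limma adjusted p = 0.97), and the sign of that difference changed with 6 of the settings tried. Matn1 was at 6.98 in FS005, with 176 reads, and undetected in the other 4 grafts and in all MEFs, and its mean difference of 2.18 did not pass (limma adjusted p = 0.17).

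The grafts were next compared with prostate, the tissue they were meant to form, to ask whether skeletal genes remained above its level. Of the 7 members tested, 4 were higher in grafts and 0 were lower by limma, where 23% and 10.3% of 16353 genes were. At an unadjusted p under 0.05, the count of lower members was also 0, and the exact permutation test gave no lower member. The median difference was 2.44 over these members and 0.11 over all genes. The members count as selected on these same prostates too, so the share of all genes is not a like background here either. Ibsp, Sp7 and Dmp1 did not reach the minimum level over these samples. Acan, Mmp13 and Matn1 reached it only through the grafts and could not have been called lower, so the split of 4 to 0 was in part fixed by this minimum. Quantile normalisation changed the 3757 higher and 1683 lower genes to 2342 and 3058 and their median to -0.13, and the 4 members stayed higher, with Mmp13 at 1.73 (limma adjusted p = 0.027), Acan at 2.58 (limma adjusted p = 0.045) and Comp called lower (-1.66).

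Spp1 exceeded prostate by 8.04 (SE 0.45, limma adjusted p = 3.3e-07), a mean normalised count 325 times higher. Runx2 exceeded it by 2.44 (limma adjusted p = 3.0e-04) and Mmp13, undetected in 2 of 6 prostates, by 3.43 (limma adjusted p = 0.0010). Acan exceeded it by 4.38 (limma adjusted p = 0.0015), a fitted difference from prostates of which 5 of 6 were undetected and which depends on how values under 3 reads are scaled. Without FS005, Acan did not reach the minimum level and was not tested. All 5 grafts lay above all 6 prostates for each of these 4 genes (exact permutation p = 0.0043). These genes had already been called by limma on the same samples, so their separation adds no independent support. The share of all genes that separate in this way was not computed. The same 4 were lower in grafts than in MEFs, and since both comparisons share the grafts, the 2 sets of values are not independent.

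Comp, at 2.78 to 4.50 in grafts and 3.08 to 3.69 in prostate, differed by 0.23 (limma adjusted p = 0.64, exact permutation p = 0.48). Alpl differed by 0.42 (SE 0.66, limma adjusted p = 0.61, exact permutation p = 0.61), with 3 grafts above every prostate and 2 below every prostate. Without FS007 the difference was 1.09 and was called (limma adjusted p = 0.04995), and without FS008 it was -0.0051. Dmp1 was above 3 reads in 5 of 5 grafts, at 2.55, 4.79, 2.66, 2.15 and 2.51, and in no prostate (exact permutation p = 0.0043), with 4 to 40 reads per graft and a mean at least 2.83 times the value of 3 reads per prostate library. Ibsp was above 3 reads in 4 of 5 grafts, with at most 18 reads (exact permutation p = 0.017 against prostate and 0.065 against MEFs). The single-gene permutation p-values are not adjusted for the number of genes.

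**Figure D3:**
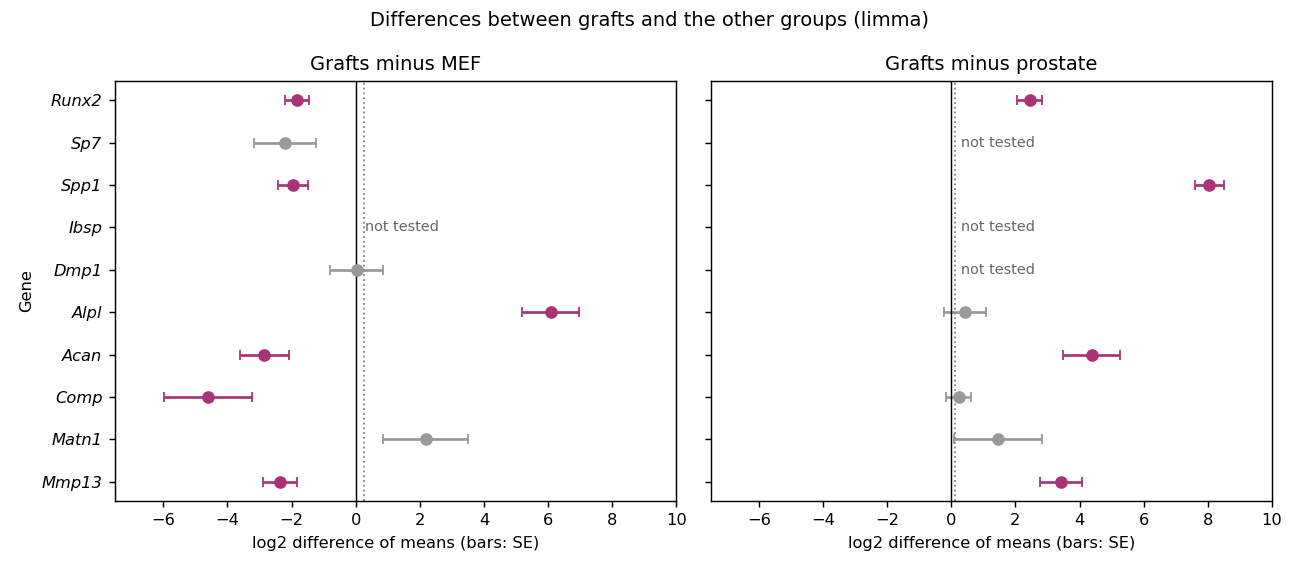
Log2 difference of group means with its SE (bars) for each gene, grafts minus MEFs on the left and grafts minus prostate on the right; coloured points passed the threshold, grey points did not, and the dotted line is the median of all genes tested. The 5 coloured genes that fell lie left of 0 on the left panel at -1.83 to -4.60, Alpl lies at 6.07, and 4 genes lie right of 0 on the right panel at 2.44 to 8.04.

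The grafts were not alike in their cartilage genes. FS005 was the graft highest in Acan (7.86), Matn1 (6.98) and Comp (4.50), and in Col2a1 it stood at 12.1, against 9.14 and 7.73 in FS002 and FS003 and 2.05 and 2.20 in FS007 and FS008. It was also the highest in Col9a1 (9.29), a collagen of the cartilage fibril. Chad, a leucine-rich repeat protein of cartilage, went the other way, at 13.39 in FS007 and 13.53 in FS008 where Col2a1 was low, and at 6.15 in FS005. Hapln1 was also higher in FS007 (9.06) and FS008 (10.83) than in FS005 (8.28). The same held for Col11a1, at 10.95 in FS007, 10.04 in FS008 and 9.58 in FS005. Of the 21 genes of the cartilage matrix list, 19 were tested against MEFs, and 6 were lower and 5 higher in grafts (7 and 2 under quantile normalisation), where 12% and 29.9% of all genes were, with Chad (7.92) and Cilp (5.56) at one end and Col2a1 (-5.50) and Comp at the other. The 8 skeletal muscle markers, such as Ckm and Myl1, followed the split in Col2a1, with mean values of 11.8, 10.9 and 10.5 in FS002, FS003 and FS005 and of 4.96 and 3.52 in FS007 and FS008, and their part in the result was not tested. In the second table, FS022 had these muscle markers at a mean of 10.5 with Col2a1 at -0.43, unlike that split. FS023 had the muscle markers at a mean of 9.31 with Col2a1 at 7.03, both nearer the high side of the split. The median of the cartilage list was 0.90 and turned to -0.65 under quantile normalisation.

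**Figure D4:**
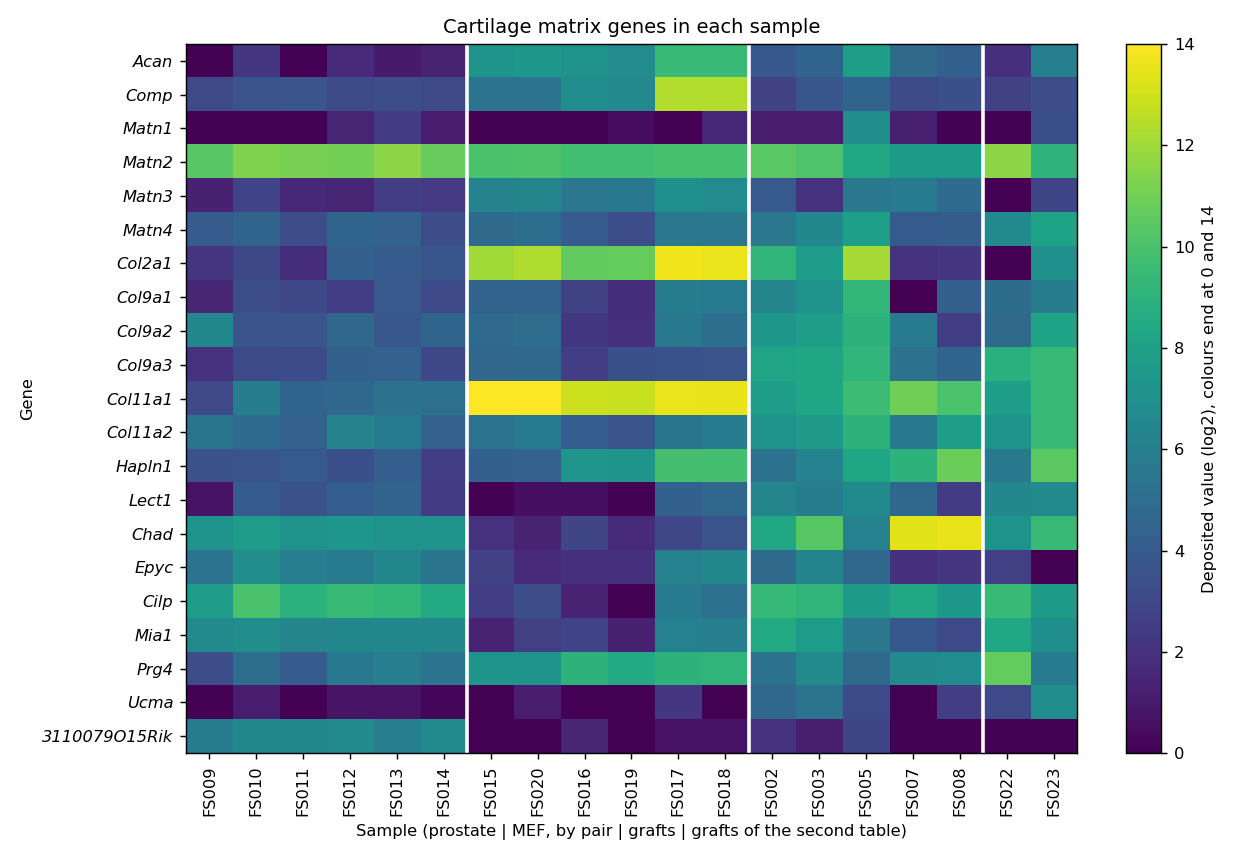
Deposited value (log2, colour) of the 21 cartilage matrix genes in each sample, with prostates, MEFs by pair, grafts and the grafts of the second table separated by white lines. FS005 is the graft with Acan, Matn1 and Col2a1 bright together, and FS007 and FS008 are bright in Chad and dark in Col2a1.

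Genes of the pathways around the members were described in the same fit, in which 12% of all genes were lower and 29.9% higher in grafts than in MEFs. The osteoblast, bone matrix, cartilage matrix, hypertrophic cartilage and protease lists include members. Their counts partly repeat those of the members and give no separate support. Of the 15 bone matrix and mineralization genes tested against MEFs, 7 were lower in grafts and 2 higher (10 and 2 under quantile normalisation), with Col1a1 (-5.03), Col1a2 (-4.52) and Postn (-4.09), a matrix protein of periosteum, falling furthest. The 11 osteoblast regulators tested gave 3 lower and 0 higher genes, and 7 and 0 under quantile normalisation, the lower ones including Twist1 (-3.45) and Twist2 (-2.42), which restrain Runx2. Of the 12 chondrocyte regulators, 4 fell, including Nkx3-2 (-4.38) and Gli3 (-3.90), and 4 rose, a share near that of all genes, including Ihh (7.19), the signal of prehypertrophic chondrocytes that is also made by epithelia. Of the 7 hypertrophic cartilage genes tested, 3 were lower and 3 higher, among them the members Mmp13, Runx2 and Alpl. Col10a1 (-5.25) fell as Mmp13 did, and Pth1r (3.07), the receptor for parathyroid hormone, rose as Alpl did. Pth1r was at 10.65, 11.39, 10.60 and 11.55 in FS002, FS005, FS007 and FS008. In FS003 it was at 7.75, within the range of the MEFs, and which cells it came from was not tested.

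Of the 12 matrix proteases and inhibitors, 9 were lower and 1 higher in grafts than in MEFs, and Timp1 (-4.91), an inhibitor of metalloproteinases such as Mmp13, fell most. The 3 genes by which osteoblasts and stromal cells steer osteoclasts were all lower: Csf1 (-4.55), Tnfrsf11b (-3.24), which encodes osteoprotegerin, and Tnfsf11 (-2.89), which encodes RANKL. Of the 5 osteoclast genes tested, 2 were higher (Atp6v0d2, 6.65, and Acp5, 4.05) and 2 lower (Ctsk, -1.69, and Nfatc1, -1.0). Of the limb mesenchyme genes, 7 of 11 were lower and 0 higher, among them Lhx9 (-6.16) and Prrx1 (-4.63), and of the tendon genes 5 of 6 were lower, among them Tnmd (-3.60) and Scx (-2.97). Ihh and Atp6v0d2 in MEFs and Nkx3-2 in grafts had mean values below that of 3 reads, so their differences depend on how such low values are scaled. Against prostate, where 23% of all genes were higher in grafts and 10.3% lower, 3 of 10 osteoblast regulators were higher and 1 lower, and 4 of 15 bone matrix genes were higher and 1 lower, shares near those of all genes. Quantile normalisation gave 2 and 0 osteoblast regulators and 2 and 3 bone matrix genes. Of 11 chondrocyte regulators 7 were higher and 1 lower (5 and 2 under quantile normalisation), of 20 cartilage matrix genes 7 and 3 (5 and 4), and of 7 hypertrophic cartilage genes 5 and 0 (5 and 0).

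Genes of other cell types moved with the groups. The 12 kidney tubule markers had mean values of 10.7 to 11.7 in the grafts FS002, FS005 and FS008, of 5.58 in FS003 and 6.46 in FS007, with 11 or 12 of 12 above 3 reads in every graft, and of 0.99 to 2.23 in MEFs and 0.32 to 2.75 in prostate. The 3 grafts highest in these markers were the 3 highest in Alpl, at 10.06 to 10.98, and the other 2 grafts were below every prostate in Alpl. Without the 3, Alpl was lower in grafts than in prostate (-1.41, limma adjusted p = 0.020), it remained higher than in MEFs (4.25, limma adjusted p = 0.0080), and 3 members were lower than in MEFs in place of 5, since Runx2 (-1.22, limma adjusted p = 0.051) and Comp (-4.63, limma adjusted p = 0.098) were not called with 2 grafts. Spp1 was still below MEFs (-2.23, limma adjusted p = 0.014) and above prostate (7.76). Kidney-enriched genes such as Kap were at 9.77 to 17.0 in grafts.

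The 10 macrophage markers had mean values of 9.23 to 10.6 in grafts, 6.70 to 8.14 in prostate, 9.63 and 9.53 in the MEFs FS015 and FS020 and 4.01 to 4.96 in the other 4 MEFs, and their summed normalised count was 9811 to 29727 in grafts and 1571 to 12423 in MEFs. All 10 were above 3 reads in each graft and 7 to 10 of them in each MEF. Itgam, which encodes a myeloid antigen named in the sorting, was at 9.81 and 9.73 in FS015 and FS020. In the other 4 MEFs it was at 1.29 to 3.35. The high values in this pair stand against the removal of myeloid cells given in the methods, and their source was not tested. In FS016 and FS019, the MEFs highest in Spp1, 7 of the 10 were above 3 reads, from Gpnmb at 10.37 and 10.48 and Cd68 at 6.24 and 6.41 down to Emr1 and C1qa at 0.98 to 2.39, near the value of 3 reads. Leaving out FS015 and FS020, the difference of Spp1 between grafts and MEFs was -2.05 (limma adjusted p = 0.011). The part of macrophage and kidney RNA in Spp1 and Alpl was not tested in any group.

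**Figure D5:**
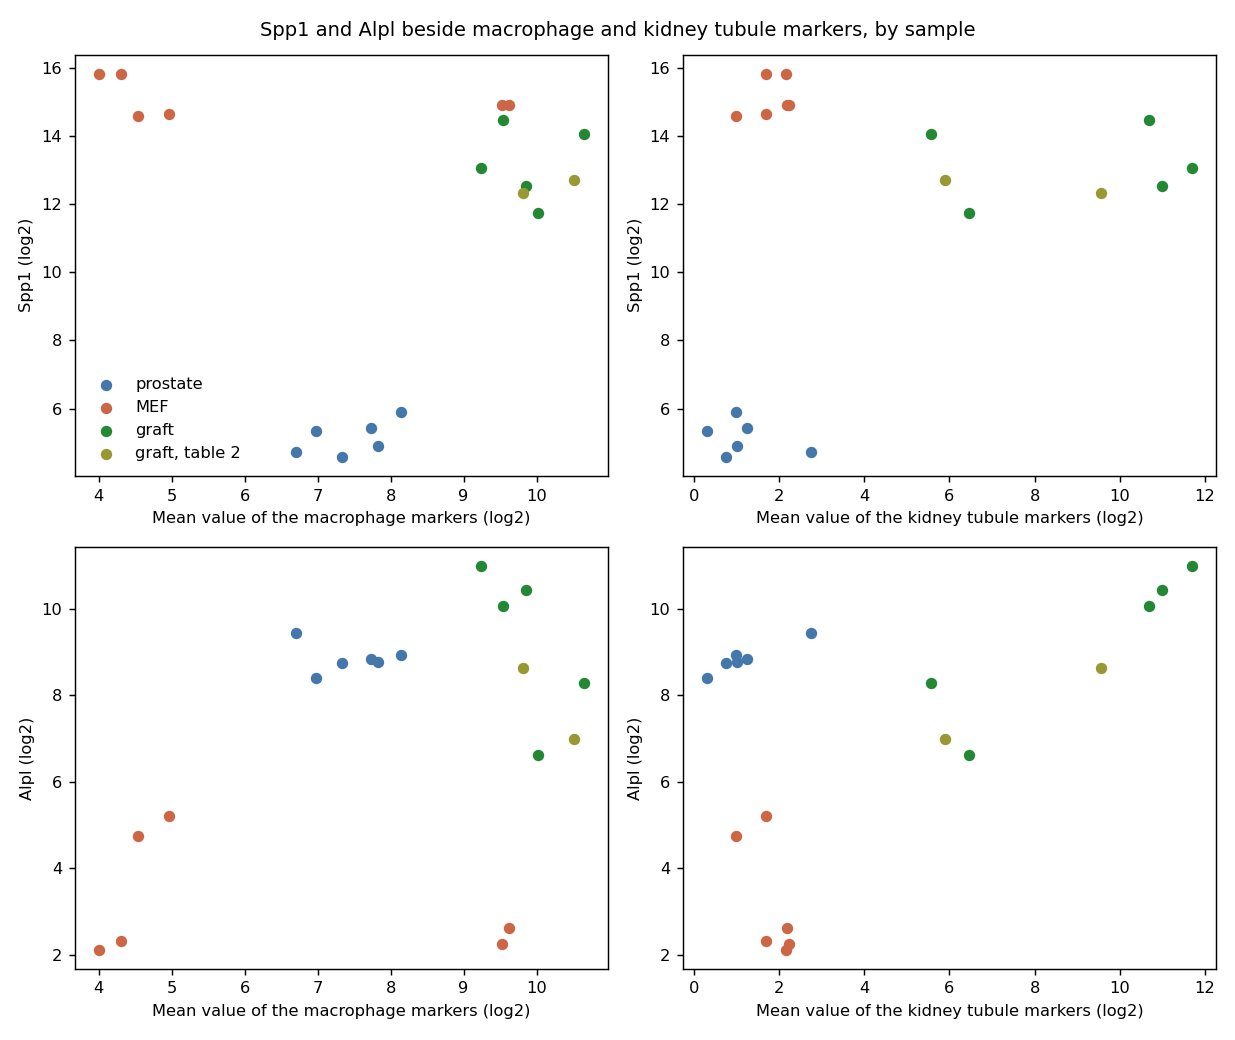
Value of Spp1 (top) and Alpl (bottom), log2, against the mean log2 value of the macrophage markers (left) and of the kidney tubule markers (right), 1 point per sample. The 6 MEFs have Spp1 at 14.60 to 15.84 and macrophage marker means of 4.01 to 9.63, and the 3 first-table grafts with kidney marker means of 10.7 to 11.7 have the highest Alpl.

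Secretory genes of the prostate were present at low level in some MEF samples: Pbsn, which encodes probasin, was at 6.6 to 8.6 in FS015 to FS018 and at 0.022 and 0.35 in FS019 and FS020, against its far higher level in prostate. The pairs FS015 with FS020 and FS016 with FS019 each hold 1 sample of either kind and were nonetheless close: Spp1, Runx2, Alpl, Acan, Comp and Mmp13 differed by at most 0.46 within any MEF pair.

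The 2 grafts of the second table, at lower depth and possibly of another kind than the first 5, were read as values only. Over 10188 genes above 5 in every sample, FS022 and FS023 differed from the first table by a median of -0.10 and -0.12. Spp1 was at 12.34 in FS022 and 12.73 in FS023, within the range of the first 5 grafts, and so was Alpl at 8.63 and 6.98. Runx2 was at 9.42 and 6.78, of which the second is below all 5 first-table grafts. Acan was undetected in FS022 and at 6.02 in FS023, Matn1 undetected in FS022 and at 3.40, or 5 reads, in FS023, and Sp7 at 4.85, or 16 reads, in FS023 only. Mmp13 was undetected in both, at 3.12 and 2.17, where the 5 first-table grafts had 4.52 or more. Dmp1 was at 5.71 and 5.89, with 21 and 35 reads, higher than in any sample of the first table (at most 5.04).

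The genes whose pattern was most like that of Spp1 across the 17 samples of the first table, by Pearson correlation of the log2 values, were Lrfn4 (r = 0.986), Lrwd1 (0.985), Sytl2 (0.982), Lpcat1 (0.982) and Ttyh2 (0.980), of 16100 genes compared. Among the members, Runx2 (0.908) and Mmp13 (0.903) ranked at 521 and 571, Acan had r = 0.876, Comp 0.518 and Alpl -0.584. The samples share group, library and depth, and 3 groups far apart set such a correlation, so it is given as a description. In the grafts the order of the median normalised count per kb was Spp1 (5209), Alpl (265), Runx2 (31.2), Mmp13 (18.9), Comp (3.76), Acan (2.86), Ibsp (2.72) and Dmp1 (1.58), and in prostate it was Alpl (111), Spp1 (20.4), Runx2 (6.50), Comp (3.20) and Mmp13 (1.94), with the other members below 1. In grafts, the ranges of all neighbours but Spp1 and Alpl overlapped, and in prostate those of all but Alpl and Spp1 and Spp1 and Runx2.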

How the data were processed

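RNA-seq libraries of MEFs, prostate and renal grafts were made by the authors with a TruSeq kit; the strand setting of the counting is not given in the sources used here. The submitters' processing notes name bcl2fastq 1.8.4, TopHat, Cufflinks, DESeq and the assembly mm9. The authors normalised counts with DESeq and deposited log2 values, in 1 table of 17 samples and another of 2, whose transformation is not named. Values from 11.5 to 15 equalled a whole read number, within 0.05 reads, scaled per sample and shifted by an amount common to all samples, as in a variance-stabilising transformation, and its inverse gave normalised counts and reads. Lower values carry an added scatter, so their read numbers are rounded estimates.

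Groups were compared within the first table with limma 3.58.1 in R 4.3.3 (lmFit, eBayes with trend) on the deposited log2 values, over genes with a mean linear value of at least 10, with Benjamini-Hochberg adjustment over all genes. A gene was called at an adjusted p-value under 0.05 and a log2 difference of at least 1. The fit was tested on simulated data. For each member, group means were also compared by exact two-sided permutation over samples (scipy 1.17.1, Python 3.11.15). The count tests allowed for in the design were not used, since the files hold no counts. Members and gene lists were chosen with earlier results of these data known. From each list, up to 4 genes with the largest difference per comparison were named, markers of other cell types were named at their levels, and exceptions are stated. The alternatives changed the low-value filter, pseudocount, scaling, variance model, samples in the fit and minimum fold change, and left out each sample in turn. Averaging each MEF pair and leaving out MEF pairs or the 3 kidney-rich grafts were alternatives chosen after seeing the data. Positions and exon lengths are from GENCODE M1 on mm9 (NCBIM37), and promoter sequences from RefSeq on GRCm38.p6. Some details of the genotype and of the cells' treatment are not reported here.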

Additional observations from a re-analysis of the deposited data

Results flagged for a closer look

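Among 27 sets of a member's values in 1 group, 4 held a sample that stood apart from the rest by Dixon's criterion, where chance gives about 1 in 20, or 1.35 of 27. Acan was at 7.86 in graft FS005, against 3.88 to 4.84 in the other 4 grafts of the first table. Dmp1 was at 4.79 in graft FS003, against 2.15 to 2.66 in the others. Sp7 was at -1.92 in graft FS007, against 1.60 to 3.0, and Ibsp at -1.38 in the MEF FS020, against 1.48 to 2.90, and both low values correspond to 0 reads.

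In the 2 grafts of the second table, which entered no test, Dmp1 was at 5.71 in FS022 and 5.89 in FS023, above the highest value in the first table, 5.04 in the MEF FS017.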

How the results depend on the processing

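No paired analysis was possible because the labels carry no replicate numbers, and numbers given in accession order pair no samples. Of 86 counts of called members under alternatives, 82 stayed within 1.5 times the value reported, and of 327 single-gene values, 306 kept direction and call. Without the 3 grafts highest in kidney markers, 3 members were lower than MEFs and 1 (Alpl, -1.41) was lower than prostate. Quantile normalisation gave 1 member lower than prostate (Comp, -1.66), and a minimum linear value of 50 left 2 members higher than prostate, since fewer members were tested. With each sample left out in turn, 5 to 6 members were lower than MEFs, 1 was higher, 3 to 5 were higher than prostate and 0 were lower.

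The sign of Dmp1 against MEFs changed to -0.086 with a pseudocount of 10, -3.01 with quantile normalisation, -0.18 without FS015 and FS020, and -0.26, -0.28 and -0.11 without FS016, FS019 and FS020. Matn1 changed to -0.62 against MEFs and to -0.52 against prostate with quantile normalisation. With each sample left out, Dmp1 against MEFs ran from -0.28 to 0.23, Alpl against prostate from -0.0051 to 1.09 and Comp against prostate from -0.010 to 0.42. The cause of these changes was not tested. Genes near 3 reads, Ibsp, Sp7, Dmp1 and Matn1, are limited by depth, and the second table more so.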
